A study of Glycine max with 8 samples.

Results

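A set of 44 soybean (Glycine max) loci was all but silent in every library except the pair of GmSIN1 over-expressing libraries that carry replicate number 2. The 44 were chosen from the 47268 loci of the deposited files by their levels in these same 8 RNA-seq libraries. A member lay on a numbered chromosome and had at most 3 expected counts summed over the 4 wild-type libraries. It also had at least 8 CPM (counts scaled to a file total of 1000000) in both over-expressing libraries numbered 2 and under 2 CPM in both numbered 1. Those levels are therefore given as a description, with no test.

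The plants were seedlings aged 2 weeks, grown hydroponically, of 2 genotypes. WEI6823 carries wild-type GmSIN1 and is called WT here, and the over-expressing plants are called GmSIN1 OE, or OE. Plants of each genotype either stood for 6 h in solution with NaCl added to 150 mM or were mock-treated for as long, and each library was made from equal parts of root and leaf RNA. There were thus 4 groups (WT mock, WT NaCl, OE mock and OE NaCl) of 2 libraries each, numbered 1 and 2. The study's design text calls the libraries of a group biological replicates, but the labels give neither the promoter of the transgene nor whether numbers 1 and 2 came from one transgenic line or from separate lines. In RNA from mixed organs, a change in the number of cells that express a gene cannot be told apart from a change in the RNA made per cell.

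GmSIN1 belongs to the NAC family, plant-specific transcription factors of which many act in development and in responses to drought and salt. NaCl in the root medium lowers the water available to the plant and brings in sodium, and abscisic acid is the main hormone of the response. The soybean genome has gone through rounds of whole-genome duplication, and many of its genes also lie in tandem arrays, so that near-identical copies are common and can differ in where and when they are expressed. The reference gene table used here holds no identifier of the kind used in the deposited files, and 0 of the 44 loci matched it. The loci are therefore named by identifier, of which the digits after "Glyma." give the chromosome, and no function is assigned to any of them. For the same reason the level of GmSIN1 itself and of marker genes of root or leaf was not analysed here.

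Total expected counts were between 5980170 and 7199775 per library, so 3 counts correspond to 0.417 to 0.502 CPM. OE libraries 1 and 2 did not separate by depth, with totals of 6551063 and 6702767 for number 1 and 6996308 and 6466660 for number 2. Between 41003 and 41598 loci had a count in the OE libraries and between 40101 and 40576 in the WT libraries. The 100 most abundant loci took 13.1% to 13.4% of counts in WT, 13.9% and 14.3% in OE mock 1 and OE NaCl 1, and 15.7% and 14.7% in OE mock 2 and OE NaCl 2. What part these differences had in the results below was not tested.

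Summed over the 44 loci, expression was 789 CPM in OE mock 2 (exact 95% Poisson interval 768 to 810, counting error only) and 797 CPM in OE NaCl 2 (776 to 819). The sum was 25.1 CPM in OE mock 1 (21.5 to 29.3) and 38.7 CPM in OE NaCl 1 (34.1 to 43.6). In the WT libraries it was 1.84 and 1.51 CPM in mock and 2.51 and 1.45 CPM in NaCl. The libraries numbered 2 were thus highest in both treatments, and the OE libraries numbered 1 held 3.18% of that level in mock and 4.85% in NaCl. All 44 loci were above 0 in both OE libraries 2, 36 in OE mock 1, 37 in OE NaCl 1 and 8 to 15 in each WT library.

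**Figure D1:**
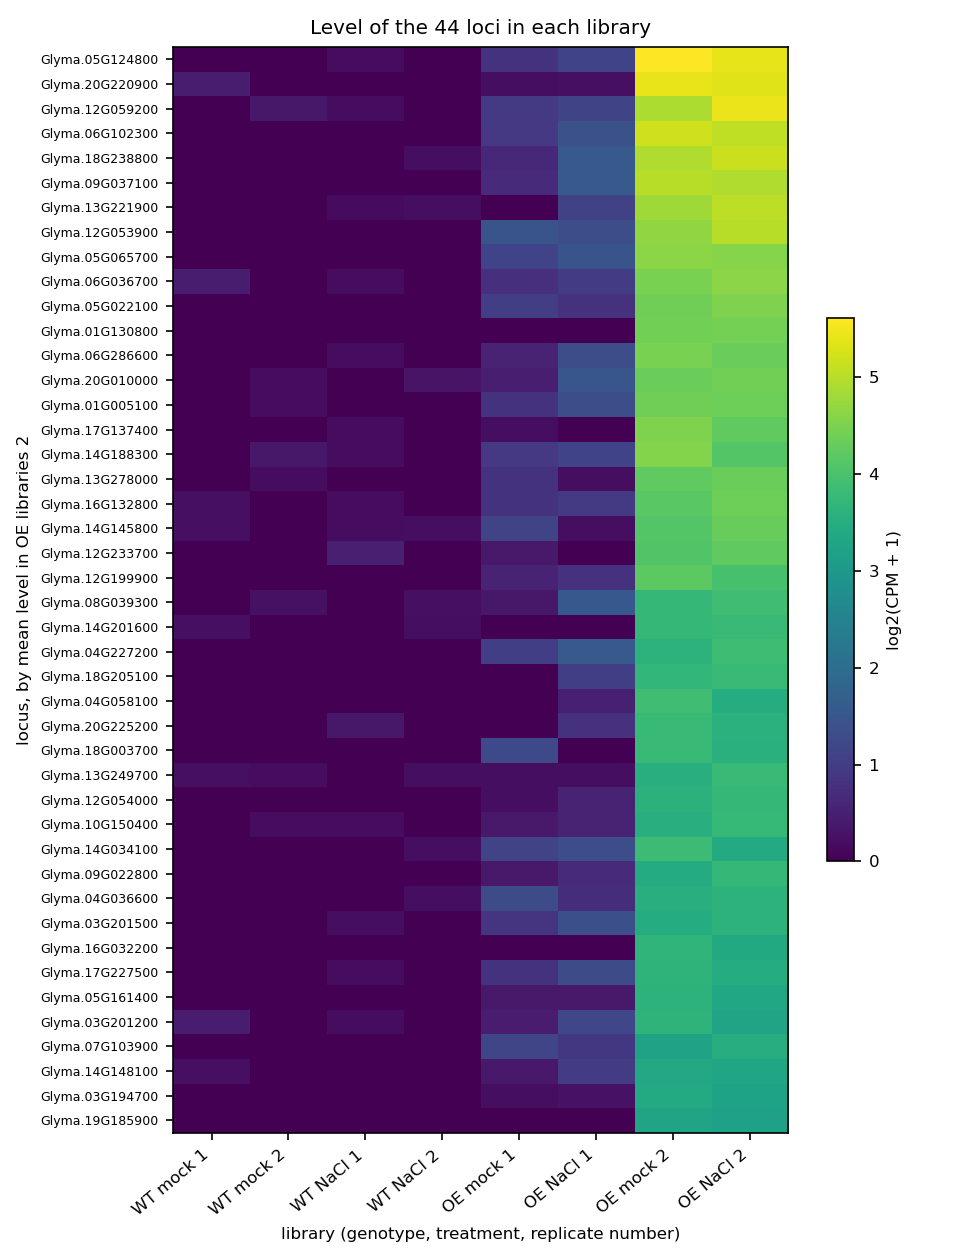
Level of each of the 44 loci (rows, ordered by mean level in OE libraries 2) in each of the 8 libraries (columns), as log2(CPM + 1) on the colour scale. The 2 right-hand columns, OE mock 2 and OE NaCl 2, run from 8.20 to 47.7 CPM, and no locus passes 1.94 CPM in the other 6 libraries.

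Levels in OE libraries 2 were moderate. The mean over both libraries ranged from 8.45 to 44.4 CPM with a median of 14.6 CPM. Over the 34023 loci that passed the abundance filter of the fit described below, the median was 10.4 CPM. Those loci had no lower limit of 8 CPM to meet, so the medians are not like for like. Of the 44 loci, 13 averaged 20 CPM or more and 6 averaged 30 CPM or more. Among all loci tested, 13.9% lay above the highest member. The deposited FPKM values of the members, which the authors scaled for length, averaged 5.28 to 94.7 over OE libraries 2, with a median of 17.9.

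The most abundant member, Glyma.05G124800 on chromosome 5 (coding length 1650 bases), stood at 47.7 CPM in OE mock 2 and 41.0 CPM in OE NaCl 2, or 44.4 ± 4.78 CPM (SD, n = 2). It was at 0.763 CPM in OE mock 1 and 1.19 CPM in OE NaCl 1, and a single count was found in WT, in WT NaCl 1. The level in OE libraries 2 was 45.4-fold that in OE libraries 1 (exact 95% counting interval 26.3 to 85.7). Such intervals between the OE pairs, here and below, cover counting error only. They are no test, since the limits set the pairs apart. The counts of Glyma.05G124800 were whole in all 8 libraries, within a tolerance of 0.01, so no read divided with another locus shows in them.

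Glyma.20G220900 on chromosome 20 was next, at 41.8 CPM in OE mock 2 and 39.4 CPM in OE NaCl 2. It was near the floor in OE libraries 1, at 0.162 and 0.166 CPM, and had 2 counts in WT, both in WT mock 1. The ratio between the OE pairs was 248, with a counting interval from 74.2 to 2229 because only 2.17 expected counts stood in the denominator.

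Glyma.12G059200 on chromosome 12 had 29.3 CPM in OE mock 2 and 42.3 CPM in OE NaCl 2, against 0.934 and 1.23 CPM in OE mock 1 and OE NaCl 1. Glyma.06G102300 on chromosome 6 had 0 counts in all 4 WT libraries, 0.916 and 1.64 CPM in OE mock 1 and OE NaCl 1, and 35.9 and 32.6 CPM in OE mock 2 and OE NaCl 2. Glyma.18G238800 on chromosome 18 reached 29.7 and 34.8 CPM in OE libraries 2 and 0.572 and 1.94 CPM in OE libraries 1. For all 3 loci the 2 libraries numbered 2 stood together and far from the other 6.

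Glyma.09G037100 on chromosome 9, also at 0 counts in WT, had 31.3 and 29.7 CPM in OE mock 2 and OE NaCl 2 and 0.611 and 1.94 CPM in OE mock 1 and OE NaCl 1. It has 2 models, and in OE mock 2 they received equal shares of its counts. Glyma.13G221900 on chromosome 13 had 27.2 and 32.2 CPM in OE libraries 2, 0 in OE mock 1 and 1.13 CPM in OE NaCl 1.

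The others among the 15 most abundant members were Glyma.12G053900, Glyma.05G065700, Glyma.06G036700, Glyma.05G022100, Glyma.01G130800, Glyma.06G286600, Glyma.20G010000 and Glyma.01G005100, with means of 19.8 to 27.7 CPM in OE libraries 2. Among them Glyma.01G130800 on chromosome 1 was the one with no count in any of the 6 other libraries. It stood at 20.2 CPM in OE mock 2 and 20.6 CPM in OE NaCl 2. This is 90.1-fold the level in OE libraries 1 when these are set at 3 counts over the pair. The exact 95% counting interval of the ratio, with 0 counts in OE libraries 1, begins at 72.9. By FPKM the order differed: Glyma.13G278000, with a coding length of 225 bases, had the highest mean FPKM, 94.7, from 18.6 CPM.

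Silence in the other libraries was a matter of degree. In WT 18 of the 44 loci had 0 counts in all 4 libraries, 27 had at most 1 and 7 had 3, the most that was allowed. The WT counts of all members came to 49.2, where the limit allowed up to 132. In OE libraries 1, 33 loci had a count in both libraries, 7 in only 1, and 4 in neither. The 4 with none were Glyma.01G130800, Glyma.14G201600, Glyma.16G032200 and Glyma.19G185900, which had 8.20 to 20.6 CPM in OE libraries 2. For the 34 loci with over 3 expected counts in OE libraries 1, OE libraries 2 were 8.22- to 51.8-fold higher, with a median of 22.3-fold. At 40 of the 44 loci the mean level in OE libraries 1 lay above the WT mean, which the limits permit, since they hold WT to fewer counts than OE libraries 1.

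The values around the limits run on without a gap. Just inside, Glyma.19G185900 had 8.70 and 8.20 CPM in OE mock 2 and OE NaCl 2, and Glyma.04G227200 had 1.07 and 1.94 CPM in OE mock 1 and OE NaCl 1. Just outside were Glyma.16G013600, with 7.92 CPM in OE mock 2, Glyma.09G048900, with 2.02 CPM in OE NaCl 1, and Glyma.10G005800, with 4 WT counts. A further 77 loci met both OE limits and missed only the WT limit.

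The 44 loci are the low end of a broader group. Of the 46955 loci on numbered chromosomes, 7351 had at most 3 counts over the WT libraries, and 158 of these reached 8 CPM in both OE libraries 2. The members make up 27.8% of the 158. In 19 of the 158 both OE libraries 1 also reached 8 CPM, in 54 both lay at 2 CPM or above without both reaching 8, and in 41 one lay under 2 CPM and the other did not. Of these 41, OE mock 1 was the lower library in 36 and OE NaCl 1 in 5. With the numbers exchanged, 22 WT-silent loci reached 8 CPM in both OE libraries 1, and 0 of those were under 2 CPM in both OE libraries 2.

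**Figure D2:**
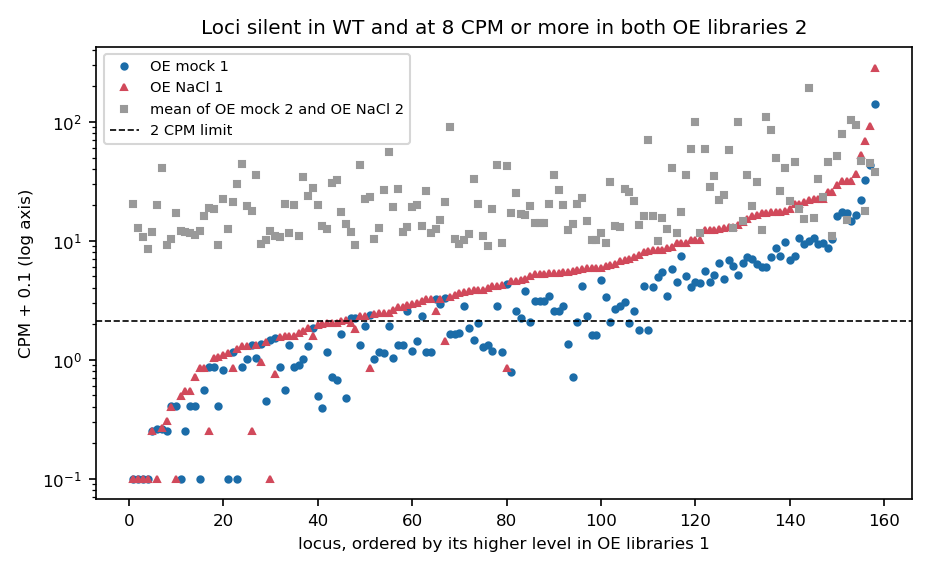
Levels in OE mock 1 (circles) and OE NaCl 1 (triangles) of the 158 loci that were silent in WT and at 8 CPM or more in both OE libraries 2, ordered along the x axis by the higher of the 2 values, with the mean of OE libraries 2 (squares); the y axis is CPM + 0.1 on a log scale. The 44 members lie wholly under the dashed line at 2 CPM, and the values cross it without a break.

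All WT-silent loci together also had more RNA in OE libraries 2. Their summed level was 6666 CPM in OE mock 2 and 6900 CPM in OE NaCl 2, against 2053 CPM in OE mock 1 and 3606 CPM in OE NaCl 1, and 272 to 288 CPM in the WT libraries. The members held 11.8% and 11.6% of the sums in OE mock 2 and OE NaCl 2. The number of WT-silent loci with any count was similar in all OE libraries, 3056 and 3220 in OE mock 1 and OE NaCl 1 and 3112 and 3352 in OE mock 2 and OE NaCl 2. Of the 7351, 6702 stayed under 2 CPM in all 4 OE libraries. The reverse pattern, at least 8 CPM in all WT libraries and OE libraries 1 and under 2 CPM in both OE libraries 2, was found at 7 loci. With at most 3 counts over both OE libraries 2, a limit closer to the one set for WT, it was found at 1 locus.

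NaCl and mock libraries had to meet the same limits, so a locus that NaCl switched on or off could not be a member, and the following values are a description of the 44. edgeR's quasi-likelihood test of NaCl against mock in OE seedlings was run over all 34023 loci. None of the 44 passed, the adjusted p being 1 for each, and the background was 0% of all loci tested (0 loci, with 507 of all loci and 0 members at an unadjusted p under 0.05). DESeq2 and limma-voom also called 0 loci. The members' log2 fold changes of NaCl over mock lay between -0.54 and 0.44 with a median of -0.07, against a median of 0.00 over all loci, and their median standard error was 1.72. With such an error, which the difference between OE libraries 1 and 2 enters, a change of several-fold was not detectable. Without OE NaCl library 2 the fit called 218 loci, none of them members.

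Within OE libraries 2, where each treatment has 1 library and no test is possible, the members were close in mock and NaCl. Of the 44, 23 were higher in NaCl and 21 lower, and all 44 lay within 1.5-fold. The requirement of 8 CPM in both libraries sets part of this closeness. Of the 13848 tested loci that met the same requirement and averaged no more than the highest member, 97.3% lay within 1.5-fold. The median log2(CPM + 1) difference was 0.04 with an SD of 0.23 across the members, against 0.05 and 0.23 for those loci; on TMM effective library sizes the members' median was -0.04. Glyma.12G059200 had the highest ratio of NaCl to mock, 1.44 (exact 95% counting interval 1.20 to 1.74), and Glyma.14G188300 on chromosome 14 the lowest, 0.710 (0.550 to 0.914), with 22.9 CPM in OE mock 2 and 16.2 CPM in OE NaCl 2. For Glyma.12G053900 the ratio was 1.27 (1.03 to 1.56), and for the 41 other loci, the interval included 1. Across the 44 loci, log2 CPM in the 2 libraries had a Pearson r of 0.93 (Spearman rho 0.88 on CPM); the loci share both libraries and were chosen to be high in both.

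**Figure D3:**
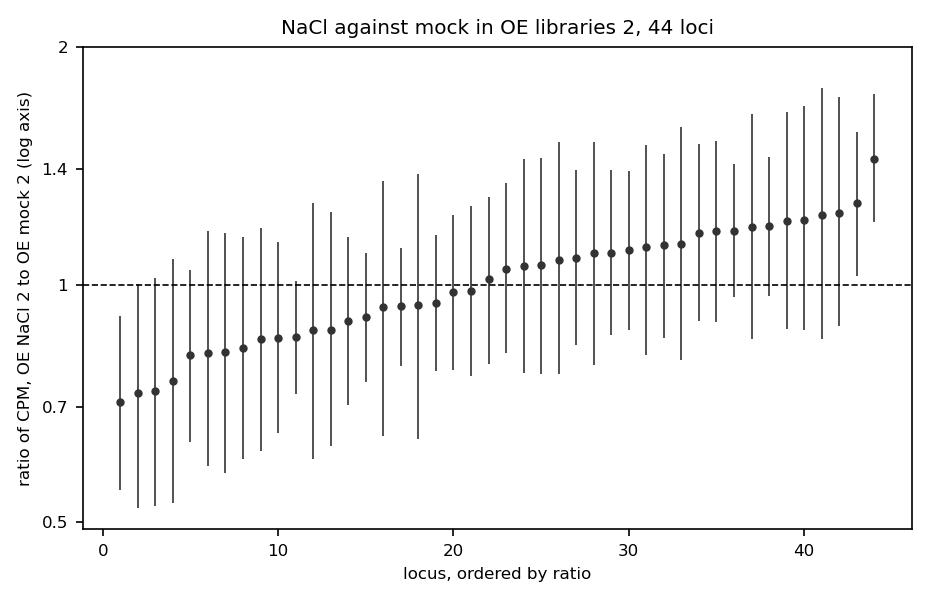
Ratio of CPM in OE NaCl 2 to OE mock 2 for each of the 44 loci, ordered by ratio along the x axis (y axis on a log scale, points are ratios and bars exact 95% counting intervals). All ratios lie between 0.710 and 1.44, and 3 of the 44 intervals leave out the dashed line at 1.

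The traces in OE libraries 1 were less even. Of the 40 loci with a count there, 29 were higher in OE NaCl 1 and 11 in OE mock 1, and the summed level was 1.54-fold higher in NaCl. The members had to lie under 2 CPM in both of these libraries, which bounds these values. Of the 41 loci above that missed this limit in 1 library alone, 36 did so in OE NaCl 1 and 5 in OE mock 1. Over all WT-silent loci, which had no such limit to meet, the summed level was 1.76-fold higher in OE NaCl 1 than in OE mock 1. In the pair numbered 2 it was 1.04-fold higher in NaCl. The ratios of members and of all WT-silent loci are thus not like for like. Each of these ratios compares 1 library with 1 other and says nothing of the treatments as such.

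For OE against WT the choice of members used the contrast, so the following counts are a description. In mock the edgeR fit called 0 of the 44 loci at an adjusted p of 0.05, where 8.92% of all loci were called and 4.2% were called as higher in OE. In NaCl it called 0 of 44, where 7.89% of all loci were called and 3.62% as higher. The members' fitted log2 fold changes were 5.12 to 10.50 in mock and 5.26 to 10.11 in NaCl, with median standard errors of 3.47 and 3.07, and their adjusted p-values were 0.0934 to 0.282 and 0.125 to 0.314. At an unadjusted p under 0.05 stood 20 members in mock and 21 in NaCl, against 30.3% and 27.7% of all loci. The limits set OE libraries 1 and 2 apart, and this spread enters the standard errors. DESeq2 called 19 members in mock and 20 in NaCl, where it called 9.12% and 8.29% of all loci as higher in OE, and limma-voom called 0 in both. In edgeR 2 members were called in mock when OE NaCl library 1 was left out and 2 when OE NaCl library 2 was, fits that called 11.6% and 11.8% of all loci as higher in OE. In NaCl 5 members were called without OE NaCl library 1, where 10.6% of all loci were called as higher.

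The median coding length of the members was 960 bases (quartiles 638 and 1423), against 1185 bases (747 and 1767) over all loci tested. The shortest, Glyma.13G278000, had 225 bases and the longest, Glyma.12G233700, 3138 bases. A single model was listed for 38 of the 44 (86.4%), against 63.2% of all loci tested. In 5 of the 6 members with several models the same model led, or tied for the lead, in OE mock 2 and OE NaCl 2. The tie was at Glyma.09G037100, whose models stood at 50% in both libraries. Counts in both OE libraries 2 were whole, within 0.01, at 16 members (36.4%), against 18.3% of all loci tested. The other 28 had fractional counts there, so that their levels depend on how reads were divided among loci. Whether these features go with the low number of counts of the members outside OE libraries 2 was not tested. The 19 loci that were silent in WT and at 8 CPM or more in all 4 OE libraries had a median coding length of 984 bases; 18 of them had 1 model, and 1 had whole counts in both OE libraries 2.

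The members were scattered over 17 of the 20 chromosomes, with 5 each on chromosomes 12 and 14 and none on chromosomes 2, 11 and 15. One further locus, on an unplaced scaffold, met the same limits. Only Glyma.12G053900 and Glyma.12G054000 were direct neighbours in the order of listed loci, and Glyma.03G201200 and Glyma.03G201500 were separated by 1 listed locus.

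The loci beside the members were compared between OE libraries 2 and 1 in the same way. The nearest tested locus on each side, members left out, gave 85 loci. In both treatments 17 of these (20.0%) were at least 2-fold higher in library 2 than in library 1 on the log2(CPM + 1) scale, against 5.3% of all loci tested, and 2 (2.35%) were at least 2-fold lower, against 6.31%. The mean log2 difference was 0.31 over these neighbours and -0.09 over all loci. Among the 77 neighbours that were not themselves silent in WT, 11 (14.3%) were 2-fold higher, against 4.49% of such loci in all. With the 5 nearest tested loci on each side the share was 11.2% of 419, and the mean log2 difference was 0.06. In all, 16 of the 44 members had such a neighbour. Of the 17 neighbours, 3 had whole counts in OE libraries 2, where 18.3% of all loci tested had them. Reads divided among loci could thus enter the values of the others, and their part was not tested. Among the 13 neighbours with whole counts, 3 were 2-fold higher, against 6.80% of the 6219 loci tested that had whole counts. These shares are descriptions without a test.

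**Figure D4:**
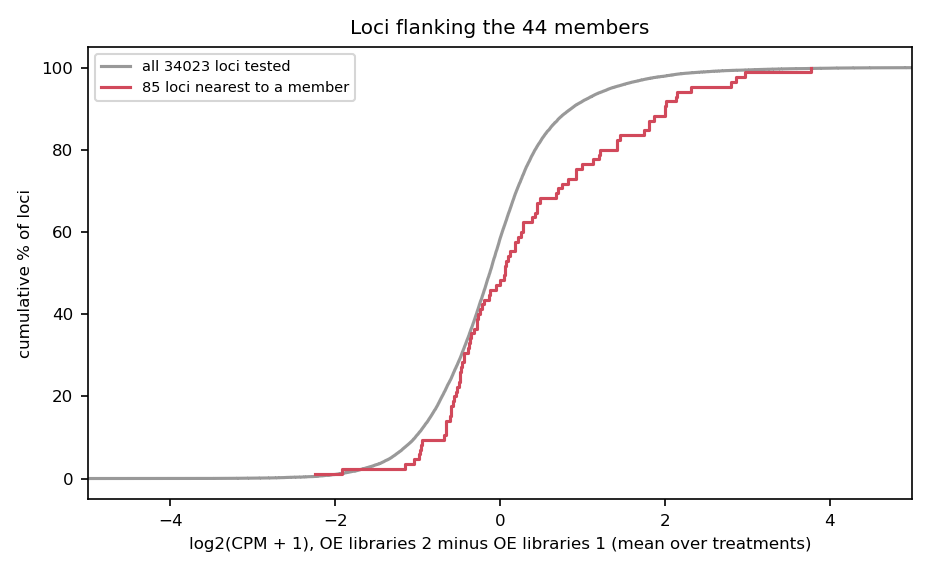
Cumulative percentage of loci (y axis) by the difference in log2(CPM + 1) between OE libraries 2 and OE libraries 1, averaged over treatments (x axis), for the 85 tested loci nearest to a member and for all 34023 loci tested. The curve of the neighbours lies to the right, with 20.0% of them at least 2-fold higher in both treatments against 5.3% of all loci.

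The surroundings of 5 members, in 3 stretches picked after their values were seen, are given locus by locus. On chromosome 12 Glyma.12G053900 and Glyma.12G054000 stand in a row of 5 tested loci from Glyma.12G053800 to Glyma.12G054200 with coding lengths of 1545 to 1575 bases, all nearly silent in WT (at most 0.417 CPM). Glyma.12G053900 had 24.4 and 31.0 CPM in OE mock 2 and OE NaCl 2 and 1.76 and 1.49 CPM in OE mock 1 and OE NaCl 1. Glyma.12G054000 had 11.1 and 12.2 CPM in OE libraries 2 and 0.153 and 0.448 CPM in OE libraries 1, and its counts were whole.

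The other 3 loci of this row did not share one pattern. Glyma.12G053800 had 9.46 and 19.4 CPM in OE mock 1 and OE NaCl 1 and 16.6 and 16.2 CPM in OE mock 2 and OE NaCl 2, so the pairs overlapped. Glyma.12G054100 had 2.45 and 6.97 CPM in OE mock 1 and OE NaCl 1 and 1.59 and 3.63 CPM in OE mock 2 and OE NaCl 2, again with overlap. Glyma.12G054200 had 16.4 and 22.2 CPM in OE mock 2 and OE NaCl 2 and 1.09 and 2.83 CPM in OE mock 1 and OE NaCl 1, and missed membership by its level in OE NaCl 1.

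On chromosome 3 the members Glyma.03G201200 and Glyma.03G201500 lay among 6 tested loci in a row, from Glyma.03G201000 to Glyma.03G201600 (coding lengths 624 to 759 bases), that all had higher levels in both OE libraries 2 than in any other library. Glyma.03G201200 had 11.5 and 8.69 CPM in OE mock 2 and OE NaCl 2, against 0.345 and 1.30 CPM in OE mock 1 and OE NaCl 1. Glyma.03G201500 had 10.1 and 11.4 CPM, against 0.806 and 1.57 CPM. Glyma.03G201000, the locus of this row most abundant in WT, was at 7.92 to 9.34 CPM in WT, 10.6 and 14.7 CPM in OE libraries 1 and 39.2 and 35.1 CPM in OE libraries 2.

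Around Glyma.12G059200 on chromosome 12, the same held for the 4 tested loci from Glyma.12G059000 to Glyma.12G059300, which have coding lengths of 1167, 804, 810 and 798 bases. Its neighbour Glyma.12G059100 was expressed in WT, at 8.57 to 10.6 CPM, and stood at 18.9 and 28.5 CPM in OE mock 1 and OE NaCl 1 and at 115 and 125 CPM in OE mock 2 and OE NaCl 2. All loci of these 3 stretches that are named here, other than Glyma.12G054000, had fractional counts, so that their separate levels are uncertain.

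**Figure D5:**
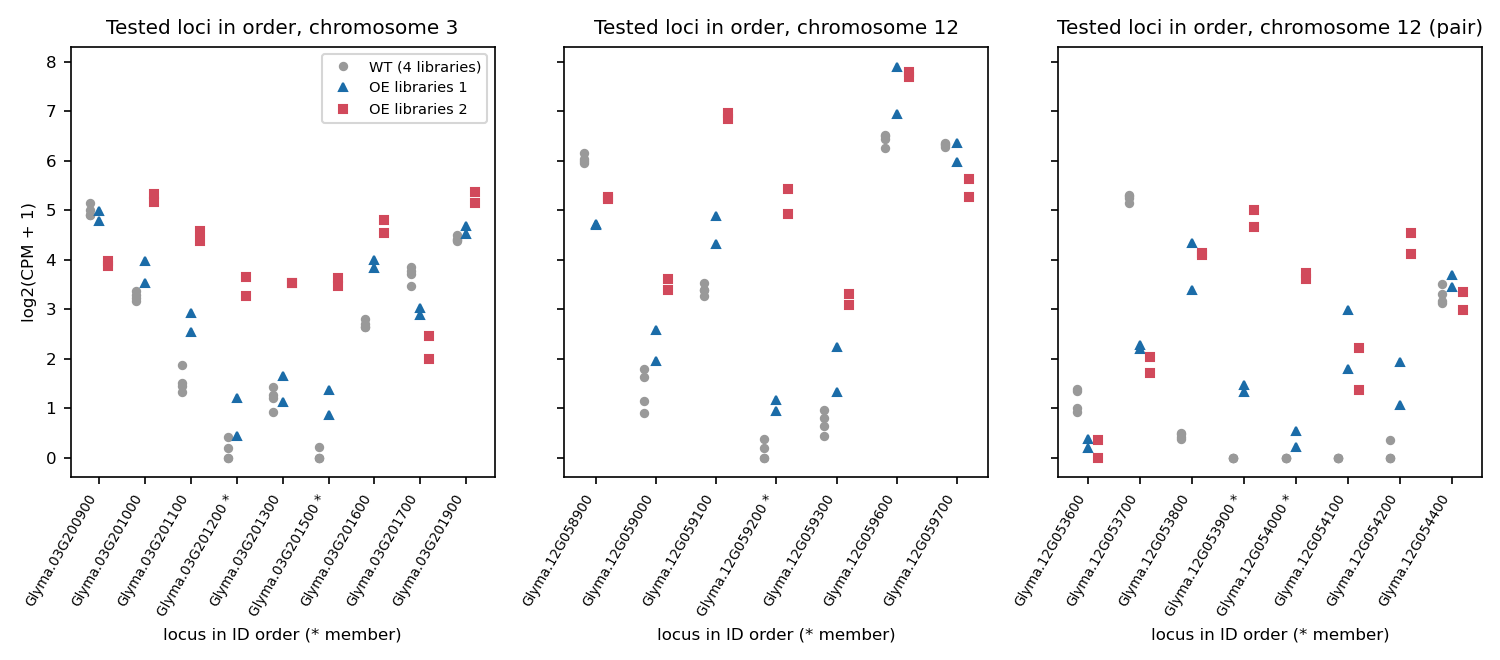
log2(CPM + 1) of neighbouring tested loci in identifier order (x axis, members marked with an asterisk) in 3 stretches, with 4 WT libraries (grey circles), 2 OE libraries numbered 1 (blue triangles) and 2 OE libraries numbered 2 (red squares) at each locus. In the left and middle panels the red squares top a run of 6 and of 4 loci; in the right panel neighbours of like length differ in which OE pair is higher.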

How the data were processed

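Per the file headers and the submitters' processing notes, the authors deposited for each library RSEM expected counts, FPKM values and lengths per gene model; the RSEM version is not given in the sources used, nor are aligner, genome build and annotation. The deposited FPKM values, scaled by the authors for length and library size, were used only to describe levels. They do not equal CPM divided by the deposited length. Every length divides by 3 and is taken as coding length. Models absent from a file were set to 0. Expected counts were summed per locus (identifier without its final number), rounded for tests, and scaled to the file total as CPM.

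The test was edgeR 4.0.16 in R 4.3.3 (filterByExpr, TMM scaling, quasi-likelihood F-test, 1 coefficient per group, all 8 libraries, Benjamini-Hochberg over 34023 loci, threshold 0.05). Alternatives used DESeq2 1.42.0 and limma 3.58.1. The fit was run on simulated counts that held no difference between OE libraries 1 and 2. That run does not show how the fit performs at loci such as the members, where these libraries differ. Standard errors come from the F statistic. The study's design text calls the libraries of a group biological replicates. No label says that they came from separate plants or pools, so p-values reflect only the spread among these libraries. Named loci are the 15 members highest in OE libraries 2, those next to each limit, and those beside another member; others named were chosen after their values were seen. Members and lists were chosen with earlier results of these data known. The planned lists of tissue markers and the comparison of proteins were not used here, since 0 of 47268 loci matched the 59048 genes of the reference table (Glycine_max_v4.0).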

Additional observations from a re-analysis of the deposited data

How the results depend on the processing

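The number of member loci was 44. It was 18 with 0 WT counts allowed, 108 and 21 with 4 and 16 CPM required in OE libraries 2, 20 and 76 with limits of 1 and 4 CPM in OE libraries 1, and 15 with only whole counts in all 8 libraries. It ranged from 45 to 80 when each library in turn was left out of the limits, the 80 being without OE NaCl library 1. CPM on TMM effective library sizes gave 53, among them all 44. Of 45 recomputed levels of the 15 most abundant members, none moved by over 18.2%. NaCl against mock in OE gave 0 calls among members under every alternative, and 0 to 218 among all loci when a library was left out. In mock, OE against WT called 3036 loci, but 5146 with DESeq2, 1193 with models as units, and 1 to 8137 with a library left out; in NaCl it called 2686, but 4620 with DESeq2, 173 with only the 4 libraries compared, 1076 with models as units, and 0 to 7204 with a library left out. Members called were 19 and 20 with DESeq2 in mock and NaCl, and 0 to 2 and 0 to 5 with a library left out.

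The labels do not say that replicate numbers pair the libraries. With a replicate block over all libraries, 4671 loci and 39 members were called in mock and 4118 and 39 in NaCl, where 7.53% and 6.61% of all loci were called as higher in OE; with a replicate block within genotype, 6662 and 8 in mock and 7000 and 9 in NaCl, where 10.02% and 10.5% of all loci were called as higher in OE. The block gave 0 calls for NaCl against mock. The members were chosen by replicate number, so these counts are no support for them. With only the 4 libraries compared, 1 and 13 of the members passed the abundance filter in mock and NaCl. The scaffold locus and the wider set of neighbours were alternatives chosen after seeing the data.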
